A study of Caenorhabditis elegans with 2 samples.

Results

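The peaks described here are 1112 weak ELT-3 peaks at promoters that lack the factor's motif, out of 5659 peaks in the pooled list. ELT-3 is one of the worm's GATA transcription factors and is known from the epidermis. The peaks were selected on measured signal, position and sequence. They were not among the 1262 pooled peaks that passed the authors' reproducibility threshold. Their summit lay in a promoter window, from 1000 bp upstream to 250 bp downstream of the start of a protein-coding transcript. No WGATAR, where W stands for A or T and R for A or G, was found on either strand within 50 bp of the summit. Of the 4397 pooled peaks below the threshold, 1617 had a promoter summit, and 1112 of these lacked the motif while 505 held it. These 505 weaker promoter peaks with WGATAR, and the 342 thresholded promoter peaks without WGATAR, are the sets used for comparison.

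All peaks come from ChIP-seq (sequencing of DNA that precipitates with a protein) in whole first-stage (L1) larvae of Caenorhabditis elegans strain OP75, genotype unc-119(ed3) III; wgIs75. The strain stably carries a transgene for ELT-3 with a GFP-FLAG tag at its C terminus, and the animals were of both sexes. The 2 biological replicates form a single group, with no other condition. The labels name ELT-3 as the antibody target and do not say whether the protein or its tag was recognised, what drives the transgene, or how many animals made a replicate. Because whole larvae were used, strong occupancy in few cells and weak occupancy in many cannot be told apart. Read depth is unknown for peak lists, and the intervals given cover only the counting error.

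GATA factors bind DNA through zinc fingers that read the GATA core and its neighbouring bases, and WGATAR is the form most closely tied to the family. In the worm, separate GATA factors act in the epidermis and in the intestine, and ELT-3 belongs to the epidermal ones. Worm promoters are short and often shared by genes on opposite strands, and many messages receive a spliced leader at a 3' splice site near their start.

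Sequences of 101 bases centred on the summit are given as examples, with WGATAR absent by the choice of the peaks. They come from the strongest peaks and those best ranked in both replicates, so they are not typical of the 1112. The GA repeat is common among them but occurred in 13.1% of all 1112 windows, whose median GC content was 41.6%. Windows of nhr-3 and T23F6.3, chosen by the same rules but not printed, held no match to the motifs. All are from ce11 (WBcel235 in RefSeq), on the plus strand, and overlap no annotated exon. The weak peaks without WGATAR come first, followed by 2 weaker promoter peaks with WGATAR for contrast. In the first set, capitals mark matches to any of 12 short motifs that were searched on both strands. In the last pair, capitals mark WGATAR.

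H28G03.2: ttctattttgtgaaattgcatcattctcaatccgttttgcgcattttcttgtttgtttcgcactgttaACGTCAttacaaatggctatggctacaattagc
C53D6.7: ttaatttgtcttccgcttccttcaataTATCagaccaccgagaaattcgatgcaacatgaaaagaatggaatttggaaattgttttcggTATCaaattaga
dpy-31: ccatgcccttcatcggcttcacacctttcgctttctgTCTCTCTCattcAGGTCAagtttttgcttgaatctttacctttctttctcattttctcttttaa
set-16: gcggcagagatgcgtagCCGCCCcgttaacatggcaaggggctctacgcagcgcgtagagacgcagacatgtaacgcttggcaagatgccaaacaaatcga
nhr-48: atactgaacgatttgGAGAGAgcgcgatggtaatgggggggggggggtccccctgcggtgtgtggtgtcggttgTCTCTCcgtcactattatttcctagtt
ucr-2.2: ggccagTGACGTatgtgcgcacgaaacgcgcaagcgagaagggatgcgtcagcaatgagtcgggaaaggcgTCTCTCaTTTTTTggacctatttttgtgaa
sup-26: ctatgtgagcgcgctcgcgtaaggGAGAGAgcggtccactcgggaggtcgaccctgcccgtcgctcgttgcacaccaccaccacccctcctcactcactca
frm-2: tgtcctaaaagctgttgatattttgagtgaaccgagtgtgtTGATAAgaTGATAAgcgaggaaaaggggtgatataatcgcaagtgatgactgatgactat
imph-1: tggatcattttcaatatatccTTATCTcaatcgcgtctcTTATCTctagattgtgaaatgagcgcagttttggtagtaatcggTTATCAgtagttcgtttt

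The windows lie at chrX:5213217-5213317 for H28G03.2, chrIV:9036928-9037028 for C53D6.7, chrIII:7201491-7201591 for dpy-31 and chrIII:13643722-13643822 for set-16. They lie at chrX:15707588-15707688 for nhr-48, chrX:15173655-15173755 for ucr-2.2 and chrIII:4280999-4281099 for sup-26. The last pair lies at chrIII:5981612-5981712 for frm-2 and chrIII:4553027-4553127 for imph-1. H28G03.2 is shown because it alone stood among the strongest 1262 peaks of each replicate when summits had to lie within 100 bp. C53D6.7 holds the 4-letter GATA core outside WGATAR. The dpy-31 gene encodes a protease that processes cuticle collagen, and its window holds a GA repeat and a nuclear receptor half-site. The set-16 gene encodes a histone methyltransferase and had the strongest of the 1112 peaks. The nhr-48 gene encodes a nuclear hormone receptor, ucr-2.2 a subunit of the respiratory chain, and sup-26 an RNA-binding protein whose window is 65.3% G or C.

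The pooled signal of the 1112 peaks, the strength given by the authors' caller in a unit that is not stated, ran from 24.5 to 42.9 with a median of 28.5. Because the threshold on this signal chose the peaks, it is given as a description. The median was 30.0 in the 505 weaker promoter peaks with WGATAR and 54.9 in the 342 thresholded promoter peaks without it. The authors' −log10 q had a median of 0.168 and reached 1.28. Just below the threshold stood set-16 with a signal of 42.872, inx-5 (a gap junction innexin) with 42.794 and T22C1.11 with 42.766. Just above it stood thresholded promoter peaks of acin-1 with 42.935, dpy-6 with 42.985 and cwf-19L1 with 43.067. The weakest peaks were those of srxa-13 with 24.473, swan-1 with 24.471 and F56D5.5 with 24.470. The cut therefore falls in a range without a visible gap in signal.

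Most of the peaks were listed in each replicate alone, but few were strong in both. A listed peak of both replicates overlapped 828 of the 1112 (74.5%, 95% Wilson interval 71.8% to 76.9%), against 406 of 505 weaker promoter peaks with WGATAR (80.4%) and 339 of 342 thresholded ones without it (99.1%). Another 147 overlapped a listed peak of replicate 1 only, 136 of replicate 2 only and 1 of neither. These shares are descriptions, since the pooled list holds the reads of both replicates. The replicate lists are long, with 25325 and 26500 peaks, so overlap with them asks for little. Limited to the strongest 5659 of each replicate, which is the length of the pooled list, 222 of the 1112 were found in both, 357 in replicate 1 only, 341 in replicate 2 only and 192 (17.3%) in neither. The share in both was 26.3% for the weaker promoter peaks with WGATAR and 94.2% for the thresholded ones without it.

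With a stricter match, a replicate summit within 100 bp of the pooled summit, chosen after seeing the data, 693 of the 1112 (62.3%) had a summit in both replicates, against 350 of 505 (69.3%) and 324 of 342 (94.7%) in the comparison sets. The overlap rule placed 4 of the 1112 among the strongest 1262 of both replicates, at pck-2, H28G03.2, C53D6.7 and dhs-8. The summit rule left H28G03.2 alone.

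**Figure D1:**
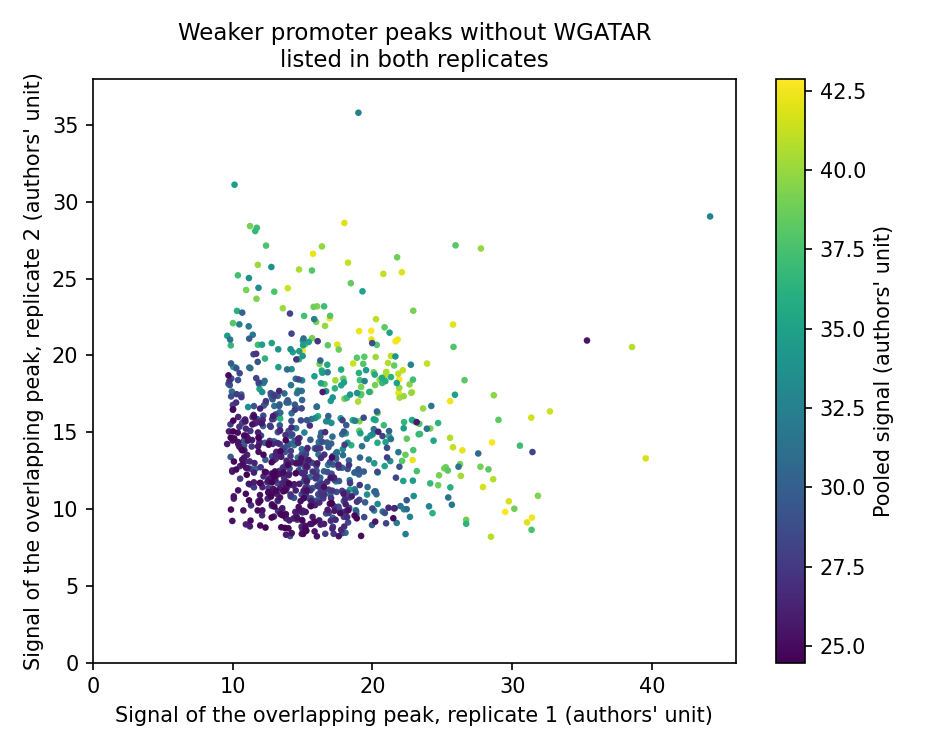
Signal of the overlapping peak in replicate 1 (horizontal axis) and replicate 2 (vertical axis), in the authors' unit, for the 828 weaker promoter peaks without WGATAR that overlap a listed peak of each; colour gives the pooled signal. The points form no rising band (Spearman's rho -0.0608), and the peaks with high pooled signal lie along the upper and right edges.

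Among the 828 peaks, Spearman's rho between the replicates' signals was -0.0608, given as a description because choosing peaks in a narrow range of pooled signal limits it. Replicate 1 gave 408 of them the better rank and replicate 2 gave 420, and in 267 the ranks differed by more than 4-fold. The spread was even between the replicates, with a median signal of 16.1 over 975 peaks in replicate 1 and 14.3 over 964 peaks in replicate 2.

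H28G03.2 (WBGene00019250), the gene that the summit rule kept, had signals of 27.8 in replicate 1 and 27 in replicate 2, ranks 885 and 672 and a pooled signal of 39.9. Its summit lay in an intron, 571 bp upstream of the nearest start. The replicate 1 summit was 98 bp from the pooled one, just inside the 100 bp limit, and the replicate 2 summit at 0 bp. C48E7.1 had signals of 38.6 and 20.6 (ranks 365 and 1354), lsm-3, an Sm-like protein of RNA processing, 23.9 and 19.5 (ranks 1269 and 1540), and osm-11, a secreted co-ligand of Notch receptors, 22.7 and 19.4 (ranks 1456 and 1560). All of these had replicate summits within 100 bp.

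Other high replicate values belonged to peaks with a displaced summit. At pck-2, a phosphoenolpyruvate carboxykinase gene, the overlapping peaks had signals of 44.2 and 29.1 although the pooled signal was 32.6, and within 100 bp of the pooled summit replicate 1 had no summit and replicate 2 had one of rank 24300. At nhr-3, a nuclear hormone receptor gene, the signals were 35.4 and 21.0 with a pooled signal of 25.5, and replicate 1 had no summit within 100 bp. At dpy-31 the signals were 25.8 and 20.6 with a pooled signal of 37.8, and replicate 2 had no summit within 100 bp. Values from overlap are therefore upper values for such peaks.

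Some peaks rested almost wholly on 1 replicate. At sup-26 the signal was 31.4 in replicate 1 and 9.44 in replicate 2 (ranks 657 and 18047), and at sptl-3, a serine palmitoyltransferase gene, 28.5 and 8.19 (ranks 829 and 26465). In the other direction, din-1, a corepressor that binds the nuclear receptor DAF-12, had 11.2 and 28.4 (ranks 15803 and 586), and imb-1, an importin beta, had 11.7 and 28.3 (ranks 14106 and 592). Set-16, the strongest of all by pooled signal, had 29.5 and 9.81 (ranks 770 and 16104). In these 5 peaks both replicates had a summit within 100 bp of the pooled one.

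The choice of the peaks limits their distance to a start, so only the comparison between sets is informative. The median distance to the nearest protein-coding start was -189 bp (negative is upstream), with quartiles of -455 and 2 bp. Upstream of or at the nearest start lay 833 of the 1112 (74.9%), against 414 of 505 weaker promoter peaks with WGATAR (82.0%) and 315 of 342 thresholded ones without it (92.1%). Within 200 bp of a start on either side lay 498 (44.8%), against 44.0% and 47.7%. Neither difference passed the test (0.824 percentage points, interval -4.41 to 6, and -2.88 points, interval -8.91 to 3.13, with adjusted p of 0.836 and 0.499 by Fisher's exact test, two-sided). In replicate 2 alone the second difference was -9.63 points (adjusted p = 0.00832, Fisher's exact test).

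**Figure D2:**
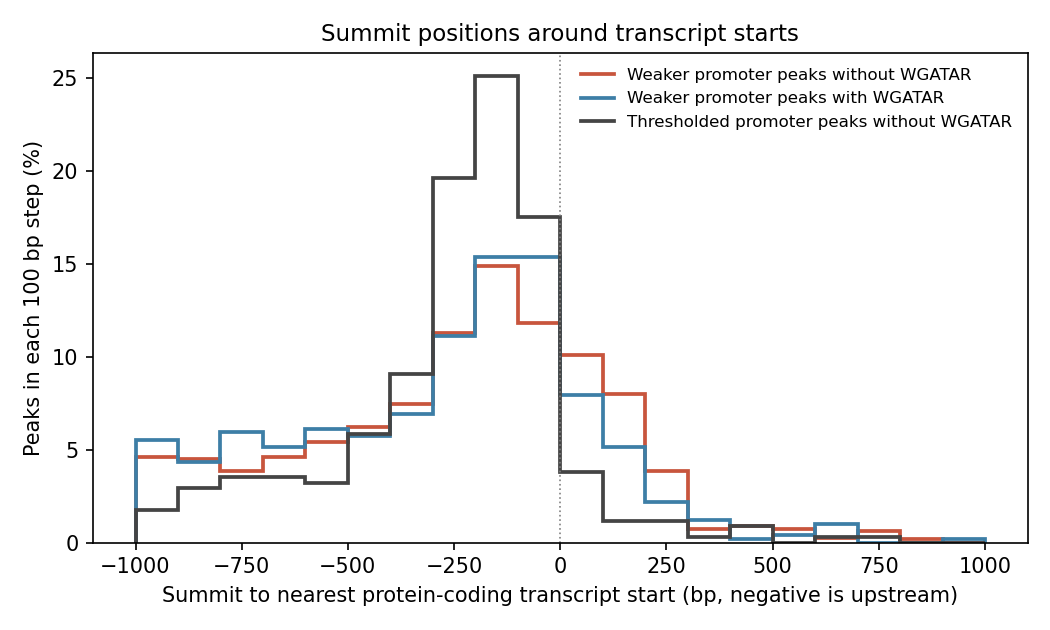
Distance from the summit to the nearest protein-coding transcript start (horizontal axis, bp, negative is upstream) against the share of peaks in each 100 bp step (vertical axis), for the 3 sets of promoter peaks. The weaker promoter peaks without WGATAR have the lowest share upstream of the start (74.9%) and the highest downstream (25.1%), and the thresholded ones the lowest downstream (7.89%).

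Many of the weak summits lay inside coding exons. The annotation placed 225 of the 1112 summits in a coding exon (20.2%, 18% to 22.7%), against 52 of 505 weaker promoter peaks with WGATAR (10.3%, 7.94% to 13.3%) and 4 of 342 thresholded ones without it (1.17%, 0.456% to 2.97%). This split was chosen after seeing the values and was not tested. In 144 of the 225 the exon belonged to the gene whose window held the summit, and in 81 to another gene. Intergenic summits made up 49.6%, against 53.9% and 69.6%, and introns 17.4%, against 25.1% and 16.4%. Within the 1112, pooled signal had a median of 27.6 in coding exons, the lowest of the annotation classes, and 29.1 between genes. Some exonic summits were still near the top of the range, with signals of 42.0 at dhs-8 and 41.1 at lsm-3. Examples of exonic summits are lsm-3, whose summit lay 35 bp inside the transcript, dhs-8 (42 bp), a short-chain dehydrogenase gene, and osm-11 (77 bp).

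**Figure D3:**
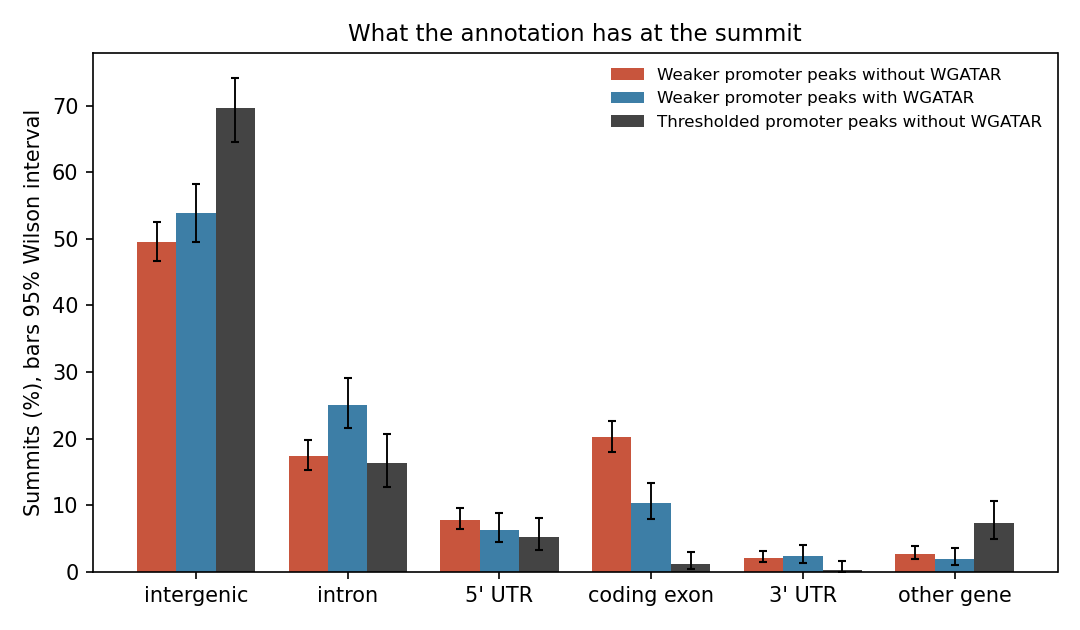
Share of summits by the annotation at the summit (vertical axis, %, with 95% Wilson intervals) in the 3 sets of promoter peaks. Coding exons hold 20.2% of the weaker promoter peaks without WGATAR, 10.3% of those with WGATAR and 1.17% of the thresholded ones without it.

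Promoters shared by genes on opposite strands were of intermediate frequency. The summit lay in windows of genes on both strands in 157 of the 1112 peaks (14.1%, 12.2% to 16.3%), against 42 of 505 weaker promoter peaks with WGATAR (8.32%) and 106 of 342 thresholded ones without it (31%). Both differences passed Fisher's exact test (two-sided, adjusted over 34 tests), with an odds ratio of 1.81 and adjusted p = 0.00359 for the first and 0.366 and 4.51e-10 for the second. Each replicate's own list, cut at the same ranks, gave 13.5% and 15.4% for the weak peaks without WGATAR (14.4% ± 1.36, SD, n = 2), against 9.11% and 10.2% for those with WGATAR and 24.5% and 29.7% for the thresholded ones. The first difference no longer passed in replicate 1 alone (adjusted p = 0.057, Fisher's exact test) or with a wider promoter window (adjusted p = 0.204, Fisher's exact test). Peaks are the units of these tests, so the p-values describe this peak list and not a sample of worms.

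Small RNA genes were rarer near the weak peaks than near the thresholded ones. A tRNA, snoRNA or snRNA gene lay within 500 bp of 28 of the 1112 summits (2.52%), of which 13 had a tRNA, 12 a snoRNA and 3 an snRNA gene. The share was 1.98% in the weaker promoter peaks with WGATAR, a difference of 0.538 points (interval -1.26 to 1.96, adjusted p = 0.752, Fisher's exact test). It was 7.02% (24 of 342) in the thresholded peaks without WGATAR, a difference that passed the test (odds ratio 0.342, adjusted p = 0.00183, Fisher's exact test) except with the narrower promoter window (2.84% against 5.73%, adjusted p = 0.107, Fisher's exact test).

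Chromosome X held 228 of the 1112 (20.5%), against 21.4% and 21.6% in the comparison sets. The intervals of the differences ran from -5.30 to 3.28 and from -6.32 to 3.60 points (adjusted p of 0.804 and 0.787, Fisher's exact test). Per Mb the peaks were densest on chromosome I (14.1) and X (12.9) and sparsest on IV (8.52). A thresholded summit lay within 2000 bp of 95 of them (8.54%), against 59 of 505 weaker promoter peaks with WGATAR (11.7%), which did not pass the test (adjusted p = 0.103, Fisher's exact test). It passed with the wider promoter window (adjusted p = 0.0328, Fisher's exact test) and without summits in coding exons (adjusted p = 0.0295).

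The sequence at the summits was richer in G and C than its surroundings, by medians that were not tested. The 101 bases around the summit had a median GC content of 41.6%, against 35.6% in windows 500 bp to either side of the same summits and 33.7% over 29304 windows centred 100 bp upstream of protein-coding starts. The medians of the comparison sets were 37.6% in the weaker promoter peaks with WGATAR and 49.5% in the thresholded ones without it. The motif that chose the sets is itself rich in A and T.

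The GATA core, the letters GATA with neighbours other than those of WGATAR, was common at the weak summits and at the thresholded ones. It occurred in 387 of the 1112 windows (34.8%), against 34.5% of thresholded peaks without WGATAR, a difference of 0.299 points (interval -5.57 to 5.92, adjusted p = 0.977, Fisher's exact test). The share was 50.1% and 47.8% in the windows 500 bp to the left and right and 50.2% over all promoter windows, where WGATAR was allowed. The most frequent forms at the summits were TGATAT in 76 peaks, CGATAA in 61 and AGATAT in 58. The windows 500 bp to either side held TGATAT 85 and 86 times, CGATAA 37 and 46 times, and AGATAT 79 and 79 times.

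WGATAR was frequent in ordinary sequence. It occurred in 21.9% and 20.2% of the 101 bp windows 500 bp to the left and right, and in 24.6% of all promoter windows. The nearest copy lay at a median of 168 bp from the summit among the 1111 peaks with a copy within 2000 bp. Neither this distance nor the shares below have a promoter background of the same width, so whether WGATAR is unusually near was not tested. Between 51 and 150 bp from the summit, 487 of the 1112 held WGATAR (43.8%, 40.9% to 46.7%), against 267 of 505 weaker promoter peaks that also held it within 50 bp (52.9%) and 164 of 342 thresholded ones that did not (48.0%). The first difference passed the test (odds ratio 0.695, adjusted p = 0.00359, Fisher's exact test) and the second did not (interval -10.2 to 1.85 points, adjusted p = 0.31). The first was lost among peaks with a pooled signal above 28.2, the median of all peaks below the threshold (adjusted p = 0.131, Fisher's exact test). With WGATAR sought within 100 bp of the summit, and the flank moved to 101 to 200 bp, the shares were 41.9% and 45.4% (adjusted p = 0.314, Fisher's exact test).

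Of the 12 motifs, 5 of 11 differed from the weaker promoter peaks with WGATAR and 5 of 12 from the thresholded ones without it. The GATA core is fixed by the choice in the first comparison and was not tested there. The GA repeat GAGAGA occurred in 146 of the 1112 windows (13.1%), against 21.0% of weaker promoter peaks with WGATAR and 22.5% of thresholded ones without it, and was lower in both comparisons (odds ratios 0.569 and 0.520, adjusted p = 7.77e-04 in both, Fisher's exact test). It was still more frequent than in the windows 500 bp away (5.49% and 6.56%) or over all promoter windows (9.21%). The second difference did not pass with the narrower promoter window (adjusted p = 0.25) or among the weak peaks with a signal above 28.2 (adjusted p = 0.0713), and the first not when WGATAR was sought within 100 bp (adjusted p = 0.225), Fisher's exact test.

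The letters TTTTCAG, the consensus of worm 3' splice sites, occurred in 65 of the 1112 (5.85%), against 2.57% and 1.17%, and were higher in both comparisons (odds ratios 2.35 and 5.25, adjusted p of 0.0143 and 7.77e-04, Fisher's exact test). The first call was lost when WGATAR was sought within 100 bp (adjusted p = 0.139, Fisher's exact test). All promoter windows held them in 8.20% and the windows 500 bp away in 11% and 9.98%. The motif thus occurred in a lower share of the weak summits than of all promoter windows, and in a higher share than in the comparison sets. Those promoter windows are all centred 100 bp upstream of a start and had a median GC content of 33.7%. At the weak summits, which are spread over the promoter window, it was 41.6%. Runs of TTTTTT, common in worm promoters, occurred in 24.4%, against 21.8% and 14.6%, and were higher than in the thresholded peaks alone (odds ratio 1.88, adjusted p = 7.77e-04, Fisher's exact test). In all promoter windows they occurred in 46.3%. TTTTTT and TTTTCAG can overlap at their T run.

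Rarer motifs gave calls that held less well. The E-box CACGTG, bound by bHLH factors, was lower than in both sets (2.70% against 5.35% and 5.85%, adjusted p of 0.0328 and 0.0303, Fisher's exact test). The first of these was lost in all 7 alternatives, each replicate alone among them (adjusted p from 0.0682 to 0.781), and the second in 5, replicate 2 alone among them (adjusted p = 0.0767, Fisher's exact test). The bZIP motifs TGACGT (6.47% against 3.56%) and TGANTCA (4.23% against 1.58%) were higher than in the weaker promoter peaks with WGATAR (adjusted p of 0.0458 and 0.024, Fisher's exact test), and neither passed in either replicate alone. The GC box GGGCGG was lower than in the thresholded peaks without WGATAR (4.23% against 7.89%, adjusted p = 0.0303, Fisher's exact test) and was lost in 4 of 7 alternatives, replicate 1 alone among them (adjusted p = 0.184). For all promoter windows the shares were 2.38% for the E-box, 3.84% and 3.66% for the bZIP motifs and 3.45% for the GC box. TATAAA, the forkhead motif TGTTTAC, the nuclear receptor half-site AGGTCA and the heat shock element GAANNTTC passed in neither comparison, with shares from 2.16% to 7.10%. Over all promoter windows these stood at 13.4%, 1.91%, 3.20% and 6.06%. TATAAA newly passed against the weaker promoter peaks with WGATAR at a signal above 28.2 (adjusted p = 0.035, Fisher's exact test). In replicate 2 alone TATAAA newly passed against the thresholded peaks (adjusted p = 0.0343, Fisher's exact test). At a signal above 28.2 the forkhead motif and heat shock element newly passed against the thresholded peaks (adjusted p of 0.0367 and 0.0382, Fisher's exact test).

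**Figure D4:**
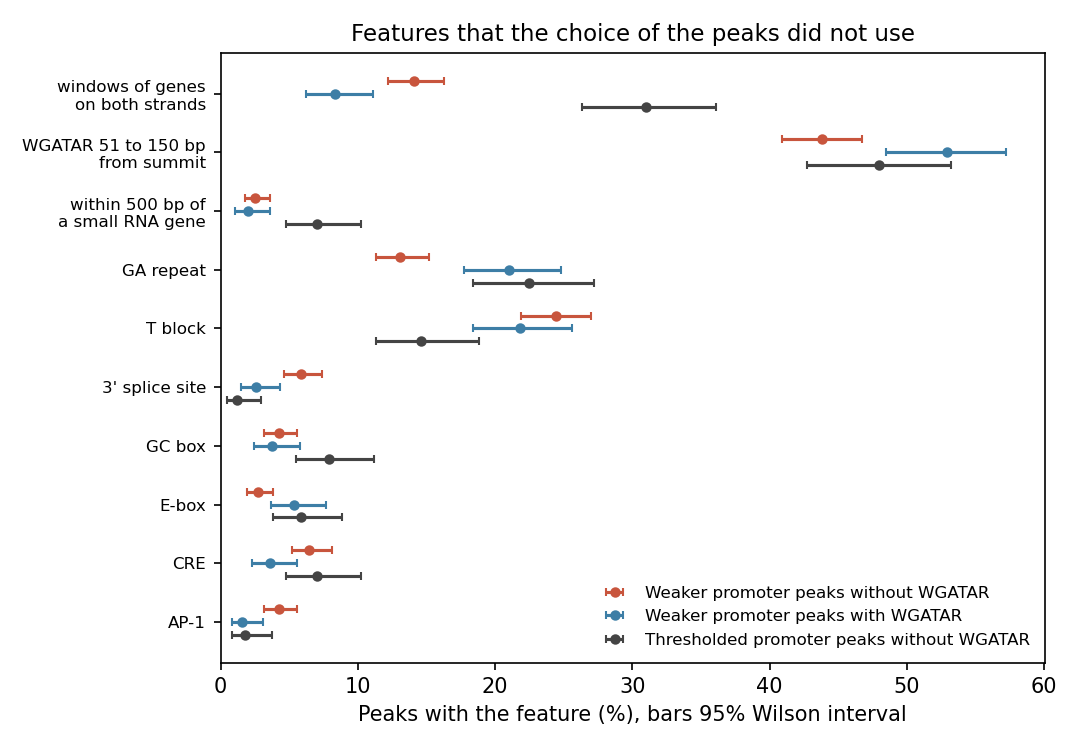
Share of peaks with each feature (horizontal axis, %, with 95% Wilson intervals) in the 3 sets of promoter peaks. The weaker promoter peaks without WGATAR lie between the other sets for shared promoters (14.1%, against 8.32% and 31%) and below both for the GA repeat (13.1%, against 21.0% and 22.5%).

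Some features varied with strength inside the weak peaks, given as a description because signal chose them. In 4 groups of 278 from weakest to strongest, shared promoters made up 10.4%, 11.5%, 15.8% and 18.7%, and the weaker 171 and stronger 171 of the thresholded peaks without WGATAR continued with 28.7% and 33.3%. The GA repeat stood at 9.35%, 8.27%, 12.2% and 22.7%, then at 24.0% and 21.1%. The strongest group of the weak peaks thus had the GA repeat about as often as the thresholded peaks. TTTTCAG ran the other way, at 7.19%, 6.47%, 5.76% and 3.96%, then 1.75% and 0.585%, and median GC content was 40.6%, 41.6%, 41.6% and 44.6%, then 48.5% and 49.5%. The GATA core showed no order, at 33.1%, 36.7%, 34.5% and 34.9%, then 37.4% and 31.6%.

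The 1112 summits lay in the promoter windows of 1265 of 19973 protein-coding genes (6.33%). The weaker promoter peaks with WGATAR reached 549 genes (2.75%) and the thresholded ones without it 453 (2.27%). A single gene's window held 931 of the summits, windows of 2 genes held 167 and windows of 3 genes 14. Of the 1265 genes, 58 also had a thresholded summit (4.58%, against 3.76% of all protein-coding genes) and 46 also a weak summit with WGATAR (3.64%, against 2.75% of all). The elt-3 gene had none of the 1112 in its window, but 1 thresholded summit without WGATAR and 1 with it, and unc-119 had none of these.

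One gene, dpy-11, a thioredoxin-like protein needed in the epidermis for cuticle and body shape, had 3 of the summits. They had signals of 29.95, 27 and 24.7 and lay in an intron, a 5' UTR and a coding exon. Replicate 1 had overlapping signals of 26.8, 13.1 and 11.9 and replicate 2 had no listed peak at the first and 13.3 and 11.7 at the others. Another 40 genes had 2 summits.

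Gene lists are described by counts against the 6.33% of all protein-coding genes, with no test. They were chosen with earlier results of these data known. Several housekeeping lists lay above that share. For mitochondrial ribosomal, glycolysis, proteasome, V-ATPase, splicing and Rab genes, however, the interval includes it. The lists for RNA polymerase and general factors (4.88%), nuclear pore (3.85%) and histones (1.39%) lay below it, with intervals that also include it. Chemoreceptors, C-type lectins and F-box genes lay below that share.

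**Figure D5:**
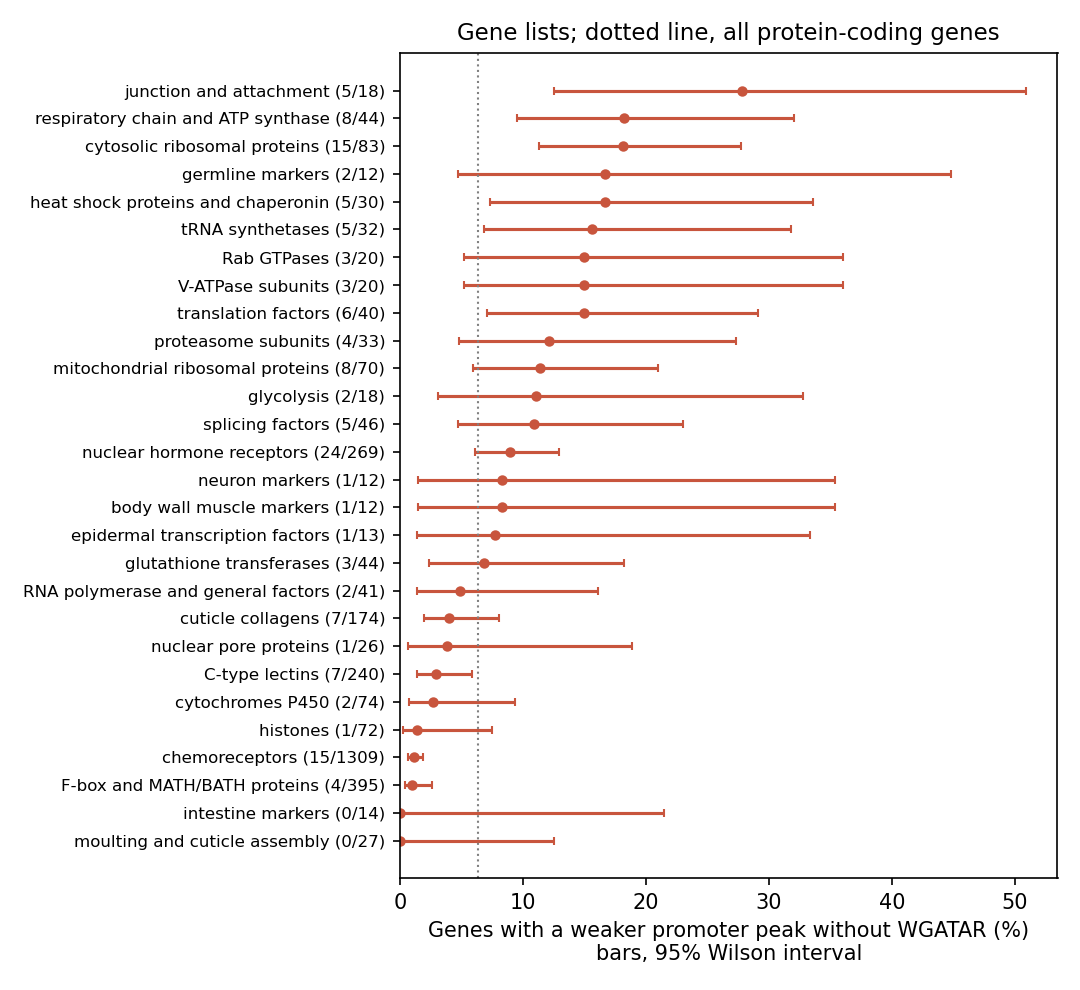
Share of genes in each list with a weaker promoter peak without WGATAR (horizontal axis, %, with 95% Wilson intervals; lists of 12 or more genes), counts in brackets; the dotted line is the 6.33% of all protein-coding genes. The cytosolic ribosomal (15 of 83), respiratory (8 of 44) and junction lists (5 of 18) lie to the right of the line, and chemoreceptors (15 of 1309) to the left.

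Of 83 cytosolic ribosomal protein genes, 15 had a weak summit without WGATAR (18.1%, 11.3% to 27.7%), at 14 peaks, against 2 with a weak summit with WGATAR and 32 with a thresholded one without it. The count was 9 in replicate 1 alone and 23 in replicate 2 alone. The strongest were at rpl-1, which had signals of 26.4 and 13.8 in replicates 1 and 2 (pooled 42.2), and at a peak between rpl-36 and rps-14 that had no listed peak in replicate 1 and 30.8 in replicate 2 (pooled 41.5). At rpl-27, in the window of 3 genes, the signals were 27.7 and 12.8 (pooled 39.0). Their median pooled signal was 33.4, against 28.5 over all 1112 peaks.

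Among energy genes, the respiratory list had a share like that of the cytosolic ribosomal genes. Of 44 respiratory chain and ATP synthase genes 8 had such a summit (18.2%, 9.51% to 32.0%), 8 in replicate 1 alone and 10 in replicate 2 alone. The subunits ucr-2.2 and ucr-2.1 of complex III had signals of 16.9 and 22.4 and of 21.9 and 17.3 in replicates 1 and 2, and the ATP synthase subunit asg-2 had 20.4 and 16.3. In these 3 genes the replicates ranked the peak between 1087 and 3703. The ucr-2.1 summit lay in a window shared with nmat-1, which is nearest. Of 20 V-ATPase subunits 3 had a weak summit without WGATAR (15%, 5.24% to 36%, vha-1, vha-8 and vha-9). Of 18 glycolysis genes 2 had one (11.1%, 3.1% to 32.8%, aldo-2 and enol-1). Both intervals include the 6.33% of all genes. The vha-8 summit lay in a window shared with C17H12.2, which is nearest. The V-ATPase count was 2 in replicate 1 alone and 1 in replicate 2 alone, and the glycolysis count 2 and 4.

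Among other genes of protein synthesis, 8 of 70 mitochondrial ribosomal proteins (11.4%), 6 of 40 translation factors (15%) and 5 of 32 tRNA synthetases (15.6%) had a weak summit without WGATAR. In replicate 1 alone the counts were 5, 4 and 2, and in replicate 2 alone 10, 6 and 4. The initiation factors eif-1.A and ife-3 had signals of 20.9 and 18.6 and of 18.2 and 17.2 in replicates 1 and 2. Mrpl-18, in a window shared with C14B9.8, which is nearest, had 17 in both. By contrast aars-1, the alanyl-tRNA synthetase, had 20.1 and 11.1.

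Genes of protein and RNA quality gave small counts with wide intervals. They were 4 of 33 for the proteasome (12.1%, 4.82% to 27.3%) and 5 of 30 for heat shock proteins and the chaperonin (16.7%, 7.34% to 33.6%). For splicing factors the count was 5 of 46 (10.9%, 4.73% to 23%). In replicate 1 alone the counts were 4, 2 and 4, and in replicate 2 alone 5, 6 and 5. With the narrower promoter window they were 3, 3 and 4. The proteasome subunit gene rpn-6.1 had signals of 17.9 and 18.5 and the mitochondrial chaperonin hsp-60 had 21.6 and 19.3. Hsp-90 had no listed peak in replicate 1 and 29.9 in replicate 2. These summits also lay in the window of another gene, which is nearest: F57B9.1 for rpn-6.1, Y22D7AL.10 for hsp-60 and C47E8.4 for hsp-90. Of 41 genes for RNA polymerase and general factors 2 had a summit (4.88%), and of 26 nuclear pore genes 1 (3.85%, npp-8). Of 20 Rab GTPases 3 had a summit (15%), and of 72 histone genes 1 (1.39%, his-71, which encodes a variant H3). These small counts moved by more than 1.5-fold in at least 1 replicate alone: 3 and 6 for RNA polymerase, 2 and 5 for nuclear pore, 2 and 1 for Rab and 4 and 1 for histone genes in replicates 1 and 2. With the narrower promoter window they were 2, 1, 0 and 0.

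Epidermal genes, the tissue of ELT-3, were mixed. Of 174 cuticle collagen genes 7 had a weak summit without WGATAR (4.02%, 1.96% to 8.07%), against 15 with a weak summit with WGATAR (8.62%) and 3 with a thresholded one without it. Among the 7, col-63 had signals of 18.5 and 24.7 in replicates 1 and 2, col-91 had 21.7 and 18.2, and col-101 had 14.1 and 14.8. At col-63 replicate 1 had no summit within 100 bp of the pooled one, so its value there is an upper value. None of 27 genes listed for moulting and cuticle assembly had one, which allows a share of up to 11.1% by the limit of 3 counts, and the count was 1 in replicate 1 alone. The list does not hold dpy-31 and dpy-11, cuticle genes that did have such summits. Of 13 epidermal transcription factors elt-6 had one, a GATA factor of the seam cells, and it was also the single gene of 11 GATA factors (2 in replicate 2 alone). Its peak had signals of 13 and 16.7 and lay 361 bp upstream of the nearest start in an annotated 3' UTR.

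Genes for epithelial junctions and attachment had the highest share, 5 of 18 (27.8%, 12.5% to 50.9%), at weak peaks. The polarity gene par-3 had signals of 18.4 and 17.5. The junction gene dlg-1 had 11.5 and 12.4, and crb-1, for the polarity protein Crumbs, had no listed peak in replicate 1 and 19.9 in replicate 2. The others were ajm-1 and vab-10. The count was 2 in replicate 1 alone and 4 in replicate 2 alone. It was 2 with the narrower promoter window, 10 with the wider one, 2 when WGATAR was sought within 100 bp and 1 among the weak peaks with a signal above 28.2.

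Of 269 nuclear hormone receptor genes 24 had a weak summit without WGATAR (8.92%, 6.07% to 12.9%), against 15 with a weak summit with WGATAR (5.58%) and 6 with a thresholded one without it. The count was 25 in each replicate alone. The strongest were nhr-48, with signals of 21.7 and 20.9 in replicates 1 and 2, nhr-32 with 21.9 and 17.6, and nhr-46 with 31.4 and 16. At nhr-46 replicate 2 had no summit within 100 bp of the pooled one, so its value there is an upper value. Of 74 cytochromes P450 2 had one (cyp-33A1 and cyp-33C2), and of 44 glutathione transferases 3. These counts were 7 and 1 in replicate 1 alone and 4 and 5 in replicate 2 alone.

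Chemoreceptors, 15 of 1309 (1.15%), F-box and MATH/BATH genes, 4 of 395 (1.01%), and C-type lectins, 7 of 240 (2.92%), lay below the share of all genes. The chemoreceptor count was 24 in replicate 1 alone and 30 in replicate 2 alone, and the F-box count 6 and 7. Without summits in coding exons the chemoreceptor count was 8. The strongest chemoreceptor peak, at srz-97, lay in a window shared with the lectin gene clec-57, which is nearest, and had signals of 21.0 and 18.9.

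Lists of markers of other tissues are short, and 4 of the 5 had a gene with a weak summit without WGATAR. The counts were 1 of 12 for body wall muscle (8.33%, unc-89, a giant muscle protein), 1 of 12 for neurons (8.33%, unc-13, needed for synaptic vesicle release), 1 of 6 for pharynx (16.7%, myo-1, a pharyngeal myosin) and 2 of 12 for germline (16.7%, glh-2 and htp-3). The intervals were 1.49% to 35.4% for muscle and for neurons, 3.01% to 56.4% for pharynx and 4.7% to 44.8% for germline. Each includes the 6.33% of all genes. The epidermal and epithelial lists had 7.69% for transcription factors, 4.02% for cuticle collagens, 0% for moulting genes and 27.8% for junction genes. With counts of 1 or 2, no order between tissues can be read from these shares. Both germline summits lay in coding exons, nearest the starts of C55B7.11 (for glh-2) and tofu-4 (for htp-3). Without summits in coding exons the germline count was 0. Among the weak peaks with a signal above 28.2 the counts were 1 for muscle, 0 for neurons, 1 for pharynx and 0 for germline. The signal of unc-89 was 24.6 in replicate 1, that of unc-13 was 18.3 in replicate 1 and that of myo-1 was 18.1 in replicate 2, each with no listed peak in the other. None of 14 intestine markers had one, which allows a share of up to 21.4% by the same limit. In replicate 1 alone the counts were 2 for muscle, 1 for neurons, 0 for pharynx, 1 for germline and 0 for intestine, and in replicate 2 alone 0, 0, 1, 1 and 1.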

How the data were processed

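ChIP-seq of tagged ELT-3 in whole L1 larvae was deposited as peak lists for 2 biological replicates and their pool, in builds ce10 and ce11. Per the labels' file lists, the authors called peaks against control alignments and kept pooled peaks by an irreproducible discovery rate (IDR) threshold. Which aligner and peak caller were used is not given in the sources used here. The deposited signal is the caller's strength per peak, on a scale that is not stated. The deposited −log10 of a q-value is relative to its own list. The ce10 lists (5365 pooled and 1260 thresholded peaks) were not used further.

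Positions are 1-based ce11 coordinates, with genes of Ensembl release 115 (WBcel235) and the RefSeq genome sequence. A replicate's value is the strongest of its peaks that overlap by at least 1 bp. The annotation at a summit, motif matches on both strands and gene lists were assigned by position. Flank windows were centred 500 bp away. Two-sided Fisher's exact tests compared features that the choice did not use, with Benjamini-Hochberg adjustment over 34 tests and a threshold of 0.05. Shares have 95% Wilson intervals and differences Newcombe intervals. Peaks are not independent replicates. The test step was tested on simulated data. Replicate values from a replicate alone use its own list, with ranks up to 1262 standing for the thresholded peaks and ranks 1263 to 5659 for the weaker ones.

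Named genes are the 10 strongest peaks, the 10 best ranked in both replicates, the 3 strongest of each list, the 5 that differ most in each direction between replicates, peaks at the edges of the range and peaks shared by 3 genes. Those described were picked from these, and other genes are named where a count was 5 or fewer. The peaks, motifs and gene lists were chosen with earlier results of these data known. Alternatives were 2 other promoter windows, WGATAR within 100 bp (with its flank at 101 to 200 bp), the stronger part of all peaks below the threshold (signal above their median of 28.2) and each replicate alone. Leaving out summits in coding exons, and matching replicates by summits within 100 bp, were chosen after seeing the data. Tests ran in scipy 1.17.1 under Python 3.11.15, tables in pandas 2.3.3 with numpy 2.4.6, and figures in matplotlib 3.10.9.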

Additional observations from a re-analysis of the deposited data

How the results depend on the processing

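No paired analysis was possible because there is 1 group. No difference past the threshold reversed under any alternative run. The narrower promoter window gave 703 peaks at 787 genes, the wider one 2001 genes, and a signal above 28.2, the median of all peaks below the threshold, 584 peaks at 698 genes, with 1112 and 1265 as the main values. The number of motifs past the threshold against the weaker peaks with WGATAR, 5 as reported, was 3 with the narrower window, 2 with the wider one, 0 of 11 with WGATAR sought within 100 bp (3 at an unadjusted p under 0.05, Fisher's exact test) and 2 in each replicate alone. Against the thresholded peaks without WGATAR, 5 as reported, it was 2 with the narrower window and 4 to 5 in a replicate alone.

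Differences in percentage points that left the threshold were -2.89 for small RNA genes against thresholded peaks (narrower window), 2.64 for shared promoters against weaker peaks with WGATAR (wider window), and -6.52 for WGATAR at 51 to 150 bp against the same set (signal above 28.2). With WGATAR sought within 100 bp, the flank at 101 to 200 bp gave -3.52. Differences that newly passed with the wider window were -7.96 for a start within 200 bp and -6.89 for WGATAR at 51 to 150 bp, both against thresholded peaks, and -3.47 for a thresholded summit within 2000 bp against weaker peaks with WGATAR. The last was -4.57 without summits in coding exons. Leaving out replicates, the shared promoter difference against weaker peaks with WGATAR was 4.37 to 5.19 and the start difference against thresholded peaks -9.63 to -0.717. Across the gene lists, 75 counts moved by over 1.5 times under an alternative and 135 did not. For single motifs, 30 differences left the threshold, 5 newly passed it and 126 stayed on their side of it. The causes were not tested. Depth is unknown, and counts under 5 in a gene list are imprecise.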
